A study of Homo sapiens with 12 samples.

Results

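Expression of 8 transcription factors of pancreatic epithelial identity was followed in KP4 and MiaPaca2, established human cell lines labelled as pancreatic ductal adenocarcinoma, with and without MEK inhibition. The factors are SOX9, GATA6, FOXA1, FOXA2, PDX1, ONECUT2, NR5A2 and ELF3. They were taken by name, as the rows of the count table whose Ensembl identifiers map to these symbols, and are 8 of the 58735 genes listed. All 8 were among the 16133 genes with enough counts to be tested. The groups were KP4 with 100 nM trametinib, KP4 with DMSO, MiaPaca2 with 100 nM trametinib and MiaPaca2 with DMSO, each treated for 48 h in DMEM with serum and represented by 3 libraries. Trametinib blocks the kinases MEK1 and MEK2, and DMSO is its solvent. The labels leave unsaid if the 3 libraries of a group were grown separately, and p-values may therefore rest on technical spread alone. Each condition was studied in a single line of each name, so line and any property of that line cannot be told apart.

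These factors bind DNA and set which genes pancreatic epithelial cells use. SOX9, FOXA2, PDX1 and members of the ONECUT family act in the progenitor cells of the embryonic pancreas, and SOX9 stays on in duct cells, PDX1 in beta cells and NR5A2 in acinar cells. In pancreatic cancer, GATA6 is widely used as a marker of the classical, more epithelial tumour type. MEK and its substrate ERK form a kinase pathway that passes growth signals to the nucleus.

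Total counts per library ran from 20293688 to 28018129. Trametinib acted in both lines on the 4 ERK-dependent genes examined as a check of the drug. The log2 fold change of the feedback inhibitor SPRY4 was -6.60 ± 0.08 (approximate SE) in KP4 and -6.03 ± 0.08 in MiaPaca2. DUSP6, ETV4 and ETV5 fell as well (edgeR quasi-likelihood test, adjusted p at most 1.97e-06 for the 4 genes, n = 3 per group). The SPRY4 responses differed by -0.57 ± 0.18, KP4 minus MiaPaca2 (edgeR adjusted p = 0.0137), and that call held in 18 of 21 alternative settings. For DUSP6, ETV4 and ETV5 the difference between the responses did not pass. With DMSO, DUSP6 and ETV4 were higher in KP4 than in MiaPaca2 and SPRY4 was lower (edgeR adjusted p at most 0.00605). MiaPaca2 DMSO replicate 2 stood apart from its group: its score on the first principal component was 62.05, against 79.23 and 79.34 in the other libraries of that group. The rest of that group was not tight either. By the chi-square of their counts per degree of freedom, replicates 1 and 3 differed by 8.33, and pairs with replicate 2 by 15.9 and 14.5. Pairs within the other groups differed by 2.03 to 2.96. Values without MiaPaca2 DMSO replicate 2 are given below where they change a call for a factor or an antisense neighbour. The mesenchymal marker VIM, an intermediate filament, was high in both lines. It averaged 3085 CPM (counts scaled to the size and composition of each library) in KP4 trametinib, 3629 in KP4 DMSO, 4956 in MiaPaca2 trametinib and 6061 in MiaPaca2 DMSO. Of 15 mesenchymal markers, 3 had 0 counts in each KP4 group and 2 in each MiaPaca2 group. The keratins KRT19 (log2 difference -5.77 ± 0.10) and KRT8 (-4.07 ± 0.09) were far lower in KP4 DMSO than in MiaPaca2 DMSO. KRT7 was higher in KP4 DMSO (1.52 ± 0.29, edgeR adjusted p at most 5.81e-05 for these keratins). Of 12 tested markers of duct and epithelium, 4 were higher and 5 lower in KP4 DMSO than in MiaPaca2 DMSO. Over all tested genes, 32.0% were higher and 31.2% lower. EPCAM, a surface marker of epithelial cells, had only 39, 28, 52 and 14 summed counts in the same 4 groups. Most acinar genes were silent, with between 12 and 15 of 18 at 0 counts in each group. The 18 summed to between 15.96 and 39.35 CPM in a library, and 1 or 2 of them averaged at least 1 CPM in each group.

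By the test within each line, some of the 8 factors fell in both lines under trametinib and some rose in both. The others were called in MiaPaca2 alone or in neither line. These classes do not compare the responses of the lines, whose difference was tested separately and is given below. SOX9, FOXA2 and PDX1 fell in both lines, while GATA6 and ELF3 rose in both. ONECUT2 fell and NR5A2 rose in MiaPaca2, and neither passed the test in KP4. FOXA1 passed in neither line. In KP4, 2 of the 8 were higher and 3 lower with trametinib at an adjusted p under 0.05, against a background in which 48.1% of all tested genes were called (23.9% higher and 24.1% lower). In MiaPaca2, 3 were higher and 4 lower, against a background of 64.0% called (34.4% higher and 29.7% lower). The median log2 fold change of the 8 was 0.01 in KP4 and -0.19 in MiaPaca2, beside medians over all tested genes of 0 and 0.05. No test here sets the counts of factors called apart from these backgrounds. In such bulk libraries, fewer cells that make a transcript and less of it per cell cannot be told apart.

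**Figure D1:**
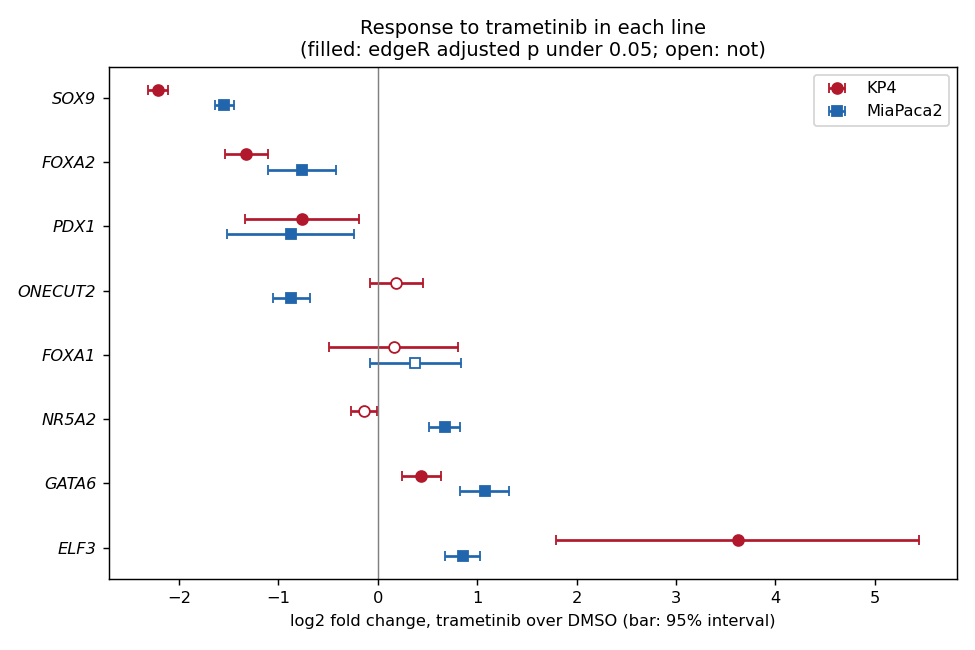
Log2 fold change of each factor, trametinib over DMSO, in KP4 (circles) and MiaPaca2 (squares), with bars for the 95% interval; filled symbols passed an adjusted p of 0.05. SOX9, FOXA2 and PDX1 lie left of 0 in both lines and GATA6 and ELF3 right of 0 in both, while ONECUT2 and NR5A2 part between the lines.

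SOX9, an HMG-box factor that keeps progenitor and duct cells in their state, had the highest length-scaled level of the 8 in 3 of the 4 groups and lost most of its transcript under trametinib. The gene lies at chr17:72121020-72126420 on the plus strand (GRCh38, GENCODE 29, as for all gene positions here). It stood at 27.2, 27.4 and 27.0 CPM in KP4 trametinib, against 126, 127 and 124 CPM in KP4 DMSO. In MiaPaca2 it stood at 64.4, 62.0 and 67.8 CPM with trametinib, against 181, 197 and 189 CPM with DMSO. In neither line did a treated library come near a control library, and the spread within each group was small. The log2 fold change was -2.21 ± 0.05 in KP4 (edgeR adjusted p = 8.31e-22) and -1.54 ± 0.05 in MiaPaca2 (edgeR adjusted p = 6.97e-20), 97.5% and 90.7% of tested genes having a smaller change in size. The fall was deeper in KP4 than in MiaPaca2 by -0.67 ± 0.07 on the log2 scale (edgeR test of the difference between the responses, adjusted p = 4.53e-08). With trametinib the 2 lines therefore stood further apart in SOX9 than with DMSO, where KP4 was lower than MiaPaca2 by a log2 difference of -0.58 ± 0.04 (edgeR adjusted p = 1.39e-11).

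FOXA2, a forkhead factor that opens chromatin in the early gut and helps switch on PDX1 in the mouse pancreas, fell beside SOX9. Its gene is at chr20:22581005-22585455 on the minus strand. It measured 5.38, 5.90 and 5.45 CPM in KP4 trametinib, against 13, 13.8 and 14.9 CPM in KP4 DMSO. In MiaPaca2 it measured 2.48, 3.36 and 2.65 CPM with trametinib, against 4.58, 4.47 and 5.23 CPM with DMSO. The groups did not overlap in either line. It changed on the log2 scale by -1.32 ± 0.11 in KP4 (edgeR adjusted p = 2.18e-10) and -0.76 ± 0.17 in MiaPaca2 (edgeR adjusted p = 4.32e-04). The difference between the responses, -0.56 ± 0.21, was close to the threshold (edgeR adjusted p = 0.0423). It kept its call in 10 of 21 alternative settings, with edgeR, DESeq2 or limma-voom adjusted p between 0.0315 and 0.159. The call was lost with RLE scaling, without the filter on low counts and with DESeq2. It was also lost when any of these libraries was left out: KP4 trametinib replicate 1 or 3, KP4 DMSO replicate 2 or 3, MiaPaca2 trametinib replicate 2 or 3, and MiaPaca2 DMSO replicate 1 or 2 (edgeR adjusted p = 0.0678 without MiaPaca2 DMSO replicate 2). The overlapping same-strand gene AL121722.1, which shares 70 exonic bases with FOXA2, had 0 counts in all libraries.

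PDX1, the homeodomain factor without which no pancreas forms, was scarce, and its fall rested on few reads. The gene is at chr13:27920020-27926231 on the plus strand. It had 26, 21 and 31 counts in KP4 trametinib, against 56, 37 and 34 in KP4 DMSO. In MiaPaca2 it had 22, 23 and 14 counts with trametinib, against 34, 34 and 42 with DMSO. All treated libraries lay below all controls of their line, though KP4 trametinib replicate 3 and KP4 DMSO replicate 3 lay only 3 counts apart. On the log2 scale the change was -0.76 ± 0.29 in KP4 (edgeR adjusted p = 0.0347) and -0.88 ± 0.32 in MiaPaca2 (edgeR adjusted p = 0.0209). The KP4 call was lost without KP4 DMSO replicate 1 (-0.48, edgeR adjusted p = 0.25), without KP4 trametinib replicate 1 (adjusted p 0.1) or 2 (adjusted p 0.12), with DESeq2 (adjusted p 0.058) and with limma-voom (adjusted p 0.0559). The MiaPaca2 call was lost without MiaPaca2 trametinib replicate 3 (edgeR adjusted p = 0.119) or MiaPaca2 DMSO replicate 3 (edgeR adjusted p = 0.084). The difference between the responses was 0.12, with a 95% interval from -0.75 to 0.99 (edgeR adjusted p = 0.878).

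ONECUT2, a CUT-homeodomain factor related to the duct regulator ONECUT1, fell in MiaPaca2. Its gene is at chr18:57435685-57491297 on the plus strand. It measured 10.7, 11.0 and 11.7 CPM in MiaPaca2 trametinib, against 21.5, 18.4 and 21.1 CPM in MiaPaca2 DMSO. In KP4 it measured 5.34, 5.98 and 5.93 CPM with trametinib, against 4.52, 5.63 and 4.98 CPM with DMSO. The MiaPaca2 groups were well apart, whereas the KP4 groups overlapped. The log2 fold change was -0.87 ± 0.10 in MiaPaca2 (edgeR adjusted p = 1.38e-08) and 0.19 ± 0.14 in KP4 (edgeR adjusted p = 0.281). The responses differed by 1.06 ± 0.17, KP4 minus MiaPaca2 (edgeR adjusted p = 1.81e-05).

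NR5A2, a nuclear receptor that maintains acinar cells in the mouse, moved the other way in MiaPaca2. Its gene is at chr1:200027602-200177424 on the plus strand. It measured 46.6, 40.3 and 45.6 CPM in MiaPaca2 trametinib, against 29.7, 28.9 and 24.7 CPM in MiaPaca2 DMSO. In KP4 it measured 51.8, 49.4 and 57.4 CPM with trametinib, against 56.2, 59.0 and 59.0 CPM with DMSO. Treated MiaPaca2 libraries lay above every control of that line, and the KP4 groups overlapped. Its log2 fold change was 0.67 ± 0.08 in MiaPaca2 (edgeR adjusted p = 2.93e-08) and -0.14 ± 0.07 in KP4 (edgeR adjusted p = 0.0989). The KP4 value passed the test when only KP4 libraries were fitted (-0.13, edgeR adjusted p = 0.0121) and without KP4 trametinib replicate 3 (-0.20, edgeR adjusted p = 0.0316). The responses differed by -0.81 ± 0.10, KP4 minus MiaPaca2 (edgeR adjusted p = 6.79e-07).

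ONECUT2 and NR5A2 responded in opposite directions in MiaPaca2, so the 250 bases before their RefSeq starts are shown together, 5′ to 3′ on the plus strand (RefSeq, GRCh38.p14). NR5A2 has a pair of starts in that table, and its windows are chr1:200027460-200027709 and chr1:200042341-200042590, while that of ONECUT2 is chr18:57435124-57435373. Capitals mark the matches to 9 motifs searched on both strands, in each case by the exact letters. AP-1 sites, bound by FOS and JUN proteins, were read as TGANTCA, and ETS sites, bound by factors such as ELF3, as CCGGAA. Forkhead sites of the FOXA proteins were read as TGTTTNC, and sites of GATA factors as AGATAA. The SOX motif was ACAATG, and that of NR5A receptors was CAAGGNCA. ONECUT factors were given ATCGAT, homeodomain proteins such as PDX1 were given TAATTA, and the TATA box of core promoters was TATAAA.
ONECUT2: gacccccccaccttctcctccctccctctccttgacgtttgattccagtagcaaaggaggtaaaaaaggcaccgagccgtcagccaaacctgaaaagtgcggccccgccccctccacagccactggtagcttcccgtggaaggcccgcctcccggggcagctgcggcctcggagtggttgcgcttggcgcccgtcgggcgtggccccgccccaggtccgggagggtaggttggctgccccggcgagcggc
NR5A2 start 1: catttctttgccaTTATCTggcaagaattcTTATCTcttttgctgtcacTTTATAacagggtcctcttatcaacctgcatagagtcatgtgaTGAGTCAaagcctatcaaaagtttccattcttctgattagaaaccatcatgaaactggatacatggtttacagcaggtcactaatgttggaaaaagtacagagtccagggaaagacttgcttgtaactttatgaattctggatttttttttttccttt
NR5A2 start 2: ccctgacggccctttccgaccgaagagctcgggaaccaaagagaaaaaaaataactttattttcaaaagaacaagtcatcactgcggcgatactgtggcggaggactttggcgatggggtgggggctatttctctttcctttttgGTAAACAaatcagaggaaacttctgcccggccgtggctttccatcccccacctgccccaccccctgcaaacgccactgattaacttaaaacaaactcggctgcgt
The ONECUT2 window held none of the 9 and had a GC content of 68.8%. The window of NR5A2 start 1, at 36.0% GC, held GATA letters 237 and 220 bases before the start and TATA box letters 201 before it, all on the opposite strand. It held the AP-1 letters TGAGTCA 158 before the start on the strand printed. That of NR5A2 start 2 held forkhead letters 105 before it, on the opposite strand. None of these matches overlapped another. Over all 35116 RefSeq promoters of this length, AP-1 letters occur in 6.57%, GATA letters in 9.17%, TATA box letters in 10.7% and forkhead letters in 15.5%. A match is a description of the letters and not evidence of a bound site.

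FOXA1, the close relative of FOXA2, was scarce in both lines and did not pass the test. Its gene is at chr14:37589984-37596059 on the minus strand. It had 29, 32 and 31 counts in KP4 trametinib, against 23, 25 and 31 in KP4 DMSO. In MiaPaca2 it had 78, 62 and 59 counts with trametinib, against 39, 41 and 75 with DMSO. The groups overlapped in both lines, in MiaPaca2 through DMSO replicate 3 alone. The log2 fold change was 0.16 (95% interval -0.49 to 0.81; edgeR adjusted p = 0.729) in KP4 and 0.38 (-0.08 to 0.84; edgeR adjusted p = 0.164) in MiaPaca2. Without MiaPaca2 DMSO replicate 3 the MiaPaca2 value was 0.77 (edgeR adjusted p = 0.00726).

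GATA6, the zinc-finger factor of the classical tumour type, rose in both lines. Its gene is at chr18:22169443-22202528 on the plus strand. It measured 12.4, 14.0 and 13.4 CPM in KP4 trametinib, against 9.94, 10.2 and 9.24 CPM in KP4 DMSO. In MiaPaca2 it measured 10.2, 10.3 and 11.5 CPM with trametinib, against 4.70, 5.71 and 4.79 CPM with DMSO. All treated libraries lay above all controls of their line. On the log2 scale GATA6 changed by 0.44 ± 0.10 in KP4 (edgeR adjusted p = 6.36e-04) and 1.08 ± 0.13 in MiaPaca2 (edgeR adjusted p = 3.67e-08). The rise was smaller in KP4 than in MiaPaca2 by -0.64 ± 0.16 (edgeR adjusted p = 0.00293). With trametinib it averaged 13.3 ± 0.8 CPM in KP4 and 10.7 ± 0.7 CPM in MiaPaca2, and with DMSO 9.80 ± 0.51 CPM in KP4 and 5.07 ± 0.56 CPM in MiaPaca2 (SD, n = 3 each).

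ELF3, an ETS factor restricted to epithelia, rose in both lines, at very different levels. Its gene is at chr1:202007945-202017188 on the plus strand. In KP4 it had 12, 14 and 17 counts with trametinib, against 0, 3 and 0 with DMSO. In MiaPaca2 it measured 42.0, 43.8 and 47.2 CPM with trametinib, against 26.8, 20.1 and 26.6 CPM with DMSO. ELF3 was thus close to undetected in untreated KP4, and the treated KP4 libraries, at 0.53 ± 0.10 CPM, stayed far below every MiaPaca2 library. The summed counts in KP4 were 43 with trametinib and 3 with DMSO, a depth-adjusted ratio of 13.8 with an exact 95% interval of 4.41 to 69.4 that covers counting error only. The fitted log2 fold change was 3.62 ± 0.93 in KP4 (edgeR adjusted p = 0.00184) and 0.86 ± 0.09 in MiaPaca2 (edgeR adjusted p = 1.97e-09). All 3 control counts of KP4 came from DMSO replicate 2, without which the fitted KP4 value was 6.72, a figure set by the prior count and no bound. The responses differed by 2.76 ± 0.99, KP4 minus MiaPaca2 (edgeR adjusted p = 0.0295). That call was lost without KP4 trametinib replicate 3 (edgeR adjusted p = 0.0665), KP4 DMSO replicate 1 (0.107) or KP4 DMSO replicate 3 (0.12). Without KP4 DMSO replicate 2 the difference was 5.87 (edgeR adjusted p = 0.0153), likewise set by the prior count and no bound.

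GATA6 and ELF3 moved up together in both lines, so their promoter windows of 250 bases are shown in the same way, chr18:22169339-22169588 for GATA6 and chr1:202010337-202010586 for ELF3, both on the plus strand of GRCh38.p14.
GATA6: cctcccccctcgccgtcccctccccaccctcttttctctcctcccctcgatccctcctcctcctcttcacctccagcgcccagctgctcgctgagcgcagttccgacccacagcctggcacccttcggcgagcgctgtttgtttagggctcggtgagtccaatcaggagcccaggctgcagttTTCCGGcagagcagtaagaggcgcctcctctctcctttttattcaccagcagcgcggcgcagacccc
ELF3: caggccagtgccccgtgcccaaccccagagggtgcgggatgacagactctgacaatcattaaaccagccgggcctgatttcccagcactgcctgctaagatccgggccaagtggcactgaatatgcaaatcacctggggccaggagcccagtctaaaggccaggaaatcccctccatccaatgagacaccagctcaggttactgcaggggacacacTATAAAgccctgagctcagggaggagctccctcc
GATA6 carried the ETS letters on the opposite strand, read as TTCCGG 67 bases before the start, and such letters occur in 14.5% of all RefSeq promoters. ELF3 carried the TATA box letters TATAAA 34 bases before its start. No other of the 9 motifs occurred in either window. The RefSeq starts lie inside the longer GENCODE 29 spans of these genes. In all, 5 of the 8 factors matched the RefSeq promoter table. The FOXA1 window, not printed, held forkhead letters 235 bases before the start, on the strand opposite to the gene. SOX9, FOXA2 and PDX1 are named without one.

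**Figure D2:**
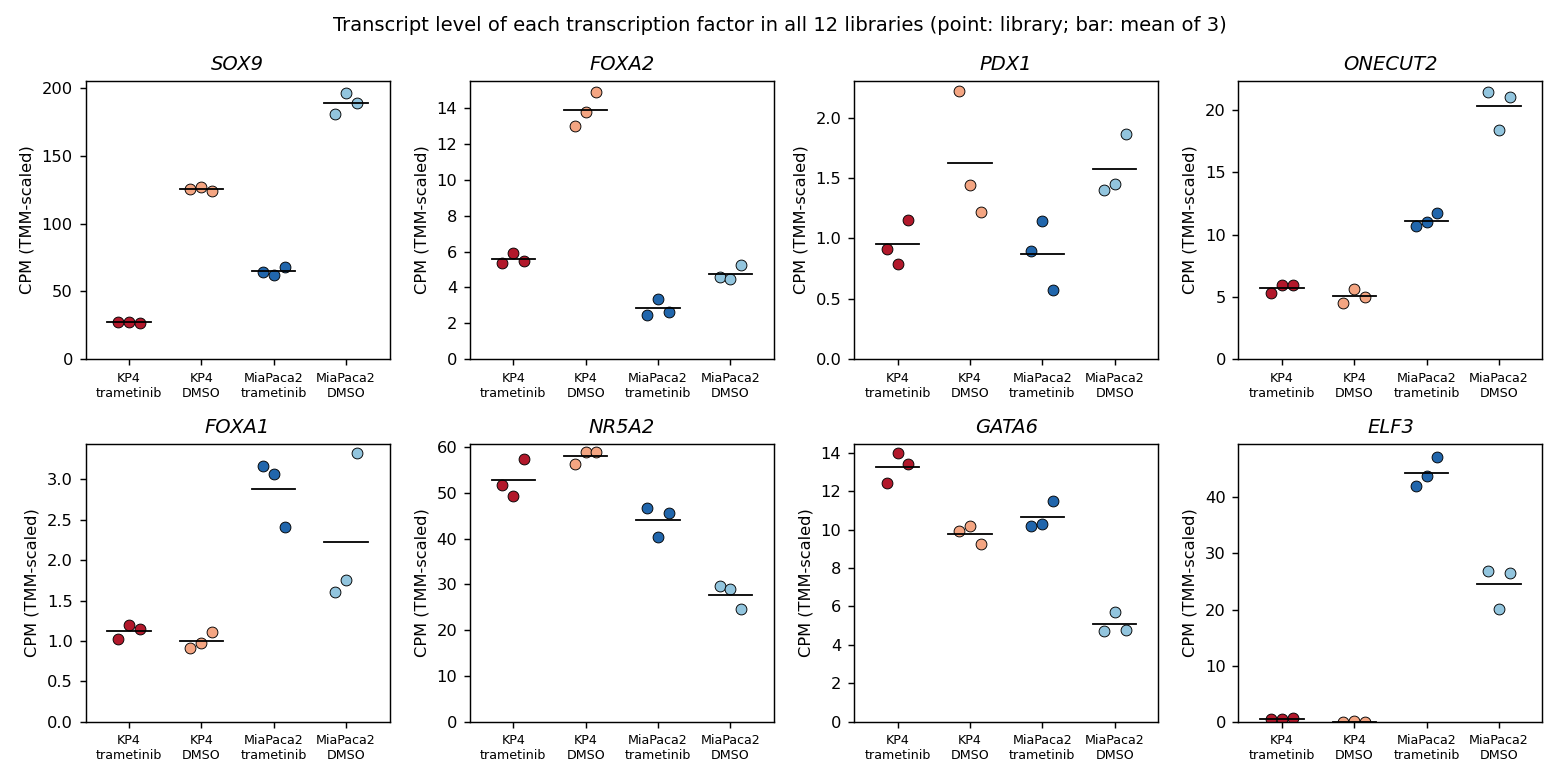
TMM-scaled CPM of each factor in all 12 libraries, by group; points are libraries and bars the mean of 3, with a separate axis from 0 in each panel. SOX9 and FOXA2 drop in both lines and GATA6 climbs in both, while ELF3 is near 0 in both KP4 groups.

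The untreated lines differed in 7 of the 8 factors, against a background of 63.2% of tested genes called (32.0% higher and 31.2% lower in KP4). GATA6, FOXA2 and NR5A2 were higher in KP4 DMSO than in MiaPaca2 DMSO, by log2 differences of 0.95 ± 0.13, 1.55 ± 0.12 and 1.06 ± 0.07. ONECUT2 was lower in KP4, at 5.04 ± 0.56 CPM in KP4 DMSO and 20.4 ± 1.7 CPM in MiaPaca2 DMSO (log2 difference -2.01 ± 0.11). FOXA1 was lower too (-1.14 ± 0.29), a difference that shrank to -0.74 without MiaPaca2 DMSO replicate 3 (edgeR adjusted p = 0.0334). ELF3 showed the widest gap, with 3 summed counts in KP4 DMSO and 1724 in MiaPaca2 DMSO, so that the MiaPaca2 level was 645 times the KP4 level (exact 95% interval 220 to 3132). The adjusted p in edgeR was at most 0.00143 for the 7 factors that differed, SOX9 among them. PDX1 gave 0.04, with an interval from -0.49 to 0.57 (edgeR adjusted p = 0.908). The median difference was -0.27 over the 8 and 0.02 over all tested genes.

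The response itself differed between the lines for 6 of the 8 factors, 2 of them higher and 4 lower in KP4, against a background of 35.7% of tested genes (16.0% higher and 19.7% lower). ONECUT2 and ELF3 had the more positive response in KP4, and SOX9, GATA6, FOXA2 and NR5A2 the more negative one. FOXA1 did not pass, at -0.22 with an interval from -1.02 to 0.58 (edgeR adjusted p = 0.727), nor did PDX1. The median difference of the 8 was -0.39, beside -0.05 over all tested genes. The 2 responses enter each such test together with both untreated groups, which also define the difference between the untreated lines.

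Scaled by the length of each gene's exons, the factors ran from 48.0 to 0.559 CPM per kb in MiaPaca2 DMSO. The span was widest in KP4 DMSO, from 32.0 down to 0.00540 for ELF3, which had 3 summed counts there. Trametinib changed the order of the factors. SOX9 led in KP4 DMSO (32.0 CPM per kb), MiaPaca2 trametinib (16.5) and MiaPaca2 DMSO (48.0). In KP4 trametinib SOX9 stood at 6.91 CPM per kb beside NR5A2 at 7.0, and the ranges of these neighbours overlapped. ELF3 was last in both KP4 groups, at 0.0730 CPM per kb with trametinib and 0.00540 with DMSO, yet in MiaPaca2 it held a place beside NR5A2, at 6.17 with trametinib and 3.41 with DMSO. GATA6 ranked above FOXA2 with trametinib in both lines, at 3.36 against 2.14 CPM per kb in KP4 and at 2.70 against 1.09 in MiaPaca2. With DMSO the order was the reverse, FOXA2 leading at 5.35 against 2.48 CPM per kb in KP4 and at 1.83 against 1.28 in MiaPaca2. The library ranges of these 2 factors did not overlap in any group. Overlapping neighbours were PDX1 and ONECUT2 in KP4 trametinib, ONECUT2 and FOXA1 in KP4 DMSO, ELF3 with NR5A2 and FOXA1 with ONECUT2 in MiaPaca2 trametinib, and NR5A2 with ELF3, GATA6 with ONECUT2 and PDX1 with FOXA1 in MiaPaca2 DMSO. The length is that of all annotated exons, 16234 bases for ONECUT2 and 2501 for PDX1, and would mislead where a line uses a shorter transcript.

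**Figure D3:**
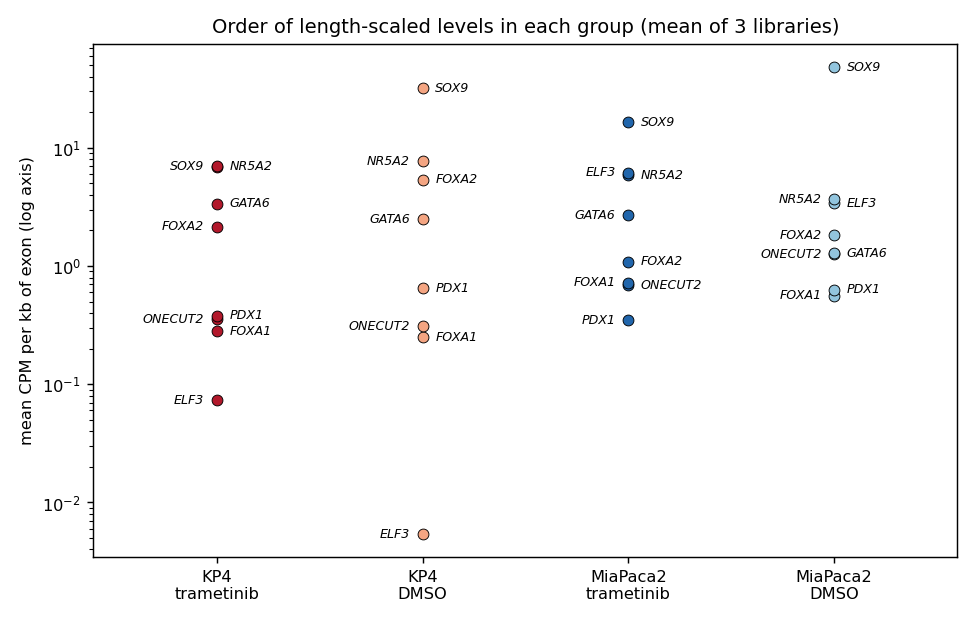
Mean CPM per kb of exon for the 8 factors in each group (3 libraries), on a log axis. SOX9 stands alone at the top except in KP4 trametinib, GATA6 lies above FOXA2 with trametinib and below it with DMSO, and ELF3 is lowest in KP4.

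Antisense and divergent RNAs beside the factors were scarce, and it is not stated whether counting used the strand, so reads in shared exons cannot be assigned to either partner. GATA6-AS1, which shares 240 exonic bases with GATA6, had 12, 15 and 10 counts in MiaPaca2 trametinib, against 2, 7 and 1 in MiaPaca2 DMSO. It rose there like GATA6 (log2 fold change 1.87 ± 0.62, edgeR adjusted p = 0.00987). The call was lost without MiaPaca2 DMSO replicate 3 (edgeR adjusted p = 0.0544), and the value was 2.96 without MiaPaca2 DMSO replicate 2. In KP4 its value was 0.17 ± 0.49 (edgeR adjusted p = 0.809). Set against each other, the KP4 value less the MiaPaca2 value came to -1.70 ± 0.80 (edgeR adjusted p = 0.102), and it passed the test at -2.79 without MiaPaca2 DMSO replicate 2 (edgeR adjusted p = 0.0246). KP4 DMSO minus MiaPaca2 DMSO gave 1.34 ± 0.66 (edgeR adjusted p = 0.0780). That value passed at 2.43 without the same library (edgeR adjusted p = 0.017) and at 1.52 with limma-voom (adjusted p = 0.0377). A further antisense gene, ENSG00000266283, shares 321 exonic bases with GATA6 and had at most 8 summed counts in a group. ELF3-AS1, which shares 664 exonic bases with ELF3, had 68, 73 and 62 counts in MiaPaca2 trametinib, against 42, 40 and 26 in MiaPaca2 DMSO, and rose beside ELF3 (0.93 ± 0.23, edgeR adjusted p = 8.80e-04). In KP4, where ELF3 went up, ELF3-AS1 had 17, 16 and 20 counts with trametinib, against 17, 12 and 20 with DMSO, at 0.05 ± 0.38 (edgeR adjusted p = 0.931). SOX9-AS1 had 4, 5 and 4 counts in KP4 trametinib, against 11, 14 and 18 in KP4 DMSO, and fell with SOX9 (-1.75 ± 0.52, edgeR adjusted p = 0.00635). Its MiaPaca2 value was -0.39 ± 0.55 (edgeR adjusted p = 0.555). LINC00261, beside FOXA2, had 0 counts in all libraries, and PDX1-AS1 had 2 counts in KP4 trametinib replicate 2 and none elsewhere.

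In MiaPaca2, SOX8, ONECUT1 and GATA4, relatives of SOX9, ONECUT2 and GATA6, fell under trametinib, and the relatives of ELF3 moved in both directions. Of 10 paralogs, 7 were tested, and in KP4 only ONECUT3 passed, falling by 2.31 ± 0.42 on the log2 scale (edgeR adjusted p = 3.57e-05). Without KP4 trametinib replicate 1, with DESeq2 and with limma-voom, 2 fell in KP4. The background was 48.1% of all tested genes called in KP4 and 64.0% in MiaPaca2. In MiaPaca2 4 of the 7 fell, 1 rose and 2 were not called. ONECUT1 fell beside ONECUT2 (-1.98 ± 0.38, edgeR adjusted p = 5.19e-05) and SOX8, a relative of SOX9, fell beside it (-1.60 ± 0.16, edgeR adjusted p = 1.63e-07). GATA4 fell (-0.52 ± 0.08, edgeR adjusted p = 4.28e-06) where GATA6 rose. ELF5, an ETS relative of ELF3, rose to 3.18 ± 0.63 CPM in MiaPaca2 trametinib, against 0.287 ± 0.10 CPM in MiaPaca2 DMSO (3.47 ± 0.34, edgeR adjusted p = 1.01e-08), and had 0 counts in KP4. EHF, another ETS relative, fell (-0.46 ± 0.18, edgeR adjusted p = 0.0418). That call was lost in 8 of 16 alternative settings. It was lost without the filter on low counts (edgeR adjusted p = 0.0784), with limma-voom (adjusted p = 0.0918) and with only the MiaPaca2 libraries fitted (edgeR adjusted p = 0.0892). It was also lost without any 1 of the MiaPaca2 trametinib libraries or without MiaPaca2 DMSO replicate 1 or 3, with edgeR adjusted p up to 0.162. The median log2 fold change of the 7 was -0.04 in KP4, where it is the value of EHF at 1 count per group, and -0.46 in MiaPaca2.

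Further transcription factors of the pancreatic duct and progenitor moved in both directions. Of 13 tested, 5 rose and 5 fell in KP4, and 6 rose and 3 fell in MiaPaca2, with medians of -0.40 and 0.74. The background for each list here was 48.1% of all tested genes called in KP4 and 64.0% in MiaPaca2. SOX4, a relative of SOX9 that acts in pancreatic progenitors, rose in both lines (0.33 ± 0.04 in KP4 and 1.20 ± 0.05 in MiaPaca2). MNX1, which acts in early pancreas development, fell in both (-1.05 ± 0.22 and -1.53 ± 0.17), and so did HHEX (-0.86 ± 0.16 and -0.90 ± 0.16). The Notch target HES1 fell in KP4 (-0.74 ± 0.09). The adjusted p in edgeR was at most 3.50e-04 for each of these changes. In MiaPaca2 HES1 rose, at 32.4 ± 1.6 CPM with trametinib, against 26.1 ± 4.2 CPM with DMSO (0.31 ± 0.09, edgeR adjusted p = 0.00290), and the responses differed by -1.05 ± 0.12, KP4 minus MiaPaca2 (edgeR adjusted p = 1.72e-07). Endocrine factors were low, with 7 of 12 tested. In KP4 3 rose, and in MiaPaca2 3 rose and 1 fell (medians 0.80 and 0.97). The KP4 count was 1 without KP4 trametinib replicate 1, KP4 trametinib replicate 3 or KP4 DMSO replicate 2. Their summed level was at most 21.2 CPM in any library. The beta cell factor MAFA reached 1.39 ± 0.22 CPM in KP4 trametinib, against 0.632 ± 0.044 CPM in KP4 DMSO, and 3.33 ± 0.12 CPM in MiaPaca2 trametinib, against 1.55 ± 0.67 CPM in MiaPaca2 DMSO (edgeR adjusted p at most 0.00757). Of 18 acinar genes 3 were tested, with 0 called in KP4 (edgeR) and GATA4 called in MiaPaca2, where 2 were called without MiaPaca2 DMSO replicate 1.

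Factors of epithelia in general also split. Of 9 tested, 3 rose and 2 fell in KP4, and 4 rose and 2 fell in MiaPaca2 (medians 0 and 0.26). For these and the markers below, the background was again 48.1% called in KP4 and 64.0% in MiaPaca2. GRHL3, a grainyhead factor of barrier epithelia, rose by 2.04 ± 0.28 in KP4 and 2.92 ± 0.27 in MiaPaca2, and KLF5 rose by 0.80 ± 0.14 and 1.44 ± 0.18. KLF4 fell by 0.68 ± 0.12 in KP4 and by 0.69 ± 0.08 in MiaPaca2 (edgeR adjusted p at most 4.52e-05 for these 3 genes in both lines). Among markers of duct and epithelium, 5 of 12 rose and 4 fell in KP4, and 5 rose and 6 fell in MiaPaca2 (medians 0.34 and -0.21). CDH1, the adhesion protein of epithelial junctions, rose on few reads, with 408 summed counts in KP4 trametinib, against 37 in KP4 DMSO, and 158 in MiaPaca2 trametinib, against 10 in MiaPaca2 DMSO (edgeR adjusted p at most 3.56e-09). The keratin KRT18 stood at 218 ± 8 CPM in MiaPaca2 trametinib, against 759 ± 57 CPM in MiaPaca2 DMSO (-1.80 ± 0.05, edgeR adjusted p = 1.09e-21). The summed level of all 19 such markers ran from 263 to 274 CPM in KP4 trametinib, against 317 to 327 in KP4 DMSO, and from 850 to 860 CPM in MiaPaca2 trametinib, against 1779 to 2156 in MiaPaca2 DMSO. Its part in the changes of the 8 factors was not tested.

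Genes used to sort tumours into the classical type, of which GATA6 is a marker, were almost absent. Of 23, 1 had enough counts to test, ANXA10, and it fell in both lines (-3.31 ± 0.49 in KP4 and -3.14 ± 0.61 in MiaPaca2, edgeR adjusted p at most 7.20e-05) while GATA6 rose. The summed level of the 23 was at most 0.742 CPM in KP4 trametinib, against at most 2.61 in KP4 DMSO, and at most 0.741 in MiaPaca2 trametinib, against at most 2.76 in MiaPaca2 DMSO. The lists that follow stand against the same background, 48.1% called in KP4 and 64.0% in MiaPaca2. Of the 13 tested basal-like genes, 1 rose and 6 fell in KP4, and 5 rose and 5 fell in MiaPaca2 (medians -0.20 and 0.02). Of 12 tested mesenchymal markers, 3 rose and 5 fell in KP4, and 5 rose and 7 fell in MiaPaca2 (medians -0.03 and -0.20). SNAI1 fell in both lines (-1.08 ± 0.08 and -0.43 ± 0.10), and SNAI2 rose in MiaPaca2 (4.05 ± 0.23) with 0 counts in KP4 (edgeR adjusted p at most 6.35e-04). Immune markers summed to at most 6.89 CPM and endothelial markers to at most 3.84 CPM in any library. Fibroblast markers, of which 4 of 8 were tested, included 2 that rose and 0 that fell in KP4 and 4 that rose and 0 that fell in MiaPaca2. Their medians were 1.15, resting in part on COL1A2 with 3 summed counts in KP4 trametinib and 0 in KP4 DMSO, and 1.21. The collagen genes COL3A1 (1.81 ± 0.22 in KP4 and 2.23 ± 0.12 in MiaPaca2) and COL1A1 (0.49 ± 0.11 and 1.36 ± 0.13) rose in both lines, and COL1A2 rose in MiaPaca2 (1.06 ± 0.16), with edgeR adjusted p at most 6.23e-04. The 8 markers summed to between 20.4 and 24.3 CPM in KP4 trametinib, against 18.1 to 18.7 in KP4 DMSO, and to between 249 and 264 CPM in MiaPaca2 trametinib, against 83.3 to 133 in MiaPaca2 DMSO. Their part in the changes of the 8 factors was not tested.

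**Figure D4:**
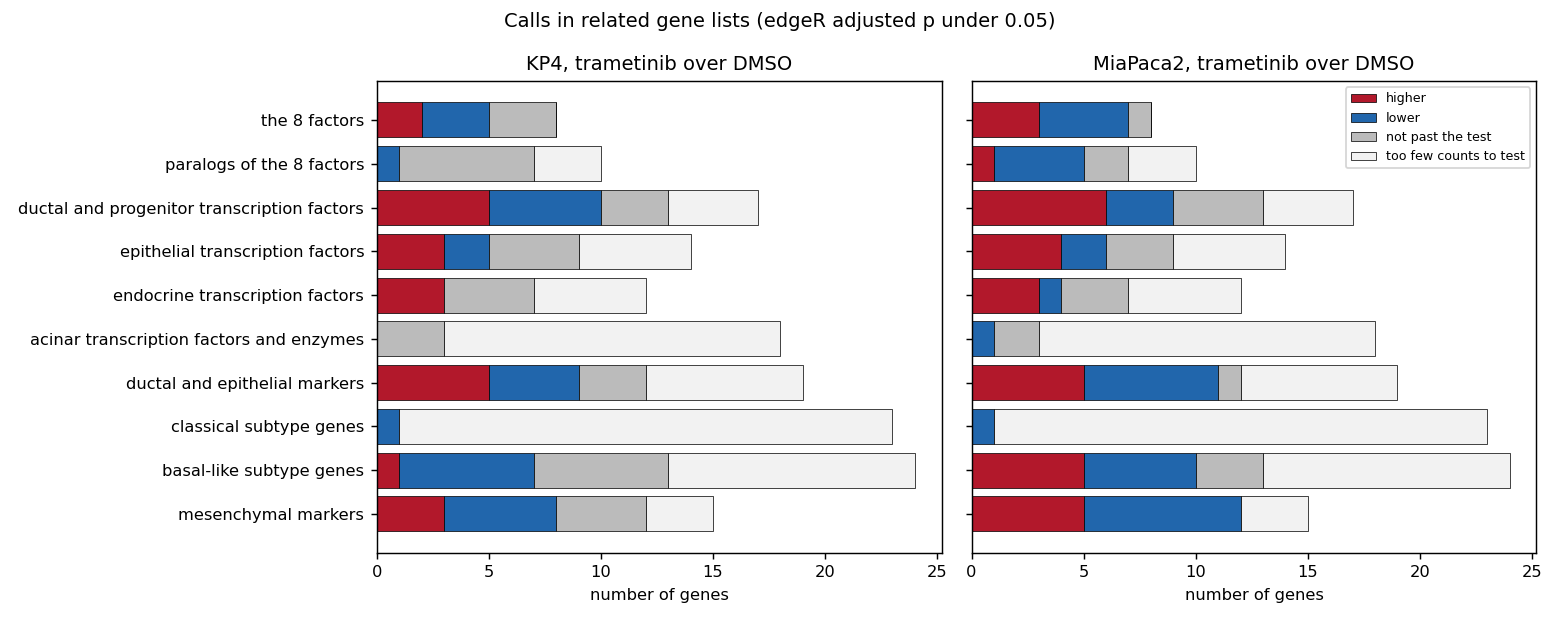
Number of genes higher, lower, not past the test and too scarce to test in each list, trametinib over DMSO, in KP4 (left) and MiaPaca2 (right). Of the lists drawn, all but the acinar and classical ones hold genes in both directions in MiaPaca2, and most classical and acinar genes were too scarce to test.

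The genes whose log2 CPM followed each factor most closely over the 12 libraries were found by Pearson correlation, as a description of profiles that share lines, treatments and libraries. SOX9 was closest to ERRFI1, a feedback inhibitor of the EGF receptor, at r = 0.998, followed by ERCC1 and NT5E. GATA6 was closest to PRSS23 and EXT1 (0.993 each) and CAV1 (0.992). For ONECUT2 they were FUCA2 (0.995), TGFBI and TOR4A, and for ELF3 RIN2 (0.996), TENT5A and JAG2. NR5A2 was closest to CDHR17P (0.981), CLASP1 and PPFIBP1, and FOXA2 to H3-3B (0.987), CLMN and ZFP69B. The scarce factors had looser partners: SDF4 (0.968), CAMLG and ENSG00000227755 for FOXA1, and LINC01152 (0.948), SHPK and KRT10-AS1 for PDX1. Among the 8, the most opposed profiles were ONECUT2 and NR5A2 (r = -0.95) and the most alike FOXA1 and ELF3 (0.90).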

How the data were processed

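Messenger RNA was sequenced in 12 libraries, 3 per group. The authors deposited raw read counts, as whole numbers for each gene. The submitters' processing notes name STAR, the GRCh38 (hg38) build and DESeq2; versions, counting program and strand setting are not given there. All 58735 identifiers were found in GENCODE 29. Counts were filtered with filterByExpr (minimum count 10, 16133 genes left), scaled with TMM and tested with edgeR 4.0.16 (R 4.3.3; quasi-likelihood test, robust shrinkage, 1 mean per group over all 12 libraries, no covariate). Benjamini-Hochberg adjustment ran over all tested genes, with a threshold of 0.05. Each ± is an SD over 3 libraries for a level and an approximate standard error for a log2 fold change. That error is the size of the log2 fold change over the square root of the quasi-likelihood F statistic. The 95% intervals of log2 fold changes use it with the normal distribution. It is rough for large changes on few counts: for DUSP6 it was 0.29 in KP4, 0.50 in MiaPaca2 and 1.21 for the difference between the responses. Depth was 20293688 to 28018129 counts per library; exact 95% intervals of count ratios cover counting error only.

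Alternatives were RLE or no scaling, no or a stricter filter, DESeq2 1.42.0, limma-voom (limma 3.58.1), fits on the compared libraries, no robust shrinkage, a replicate block, leaving out each library and, added after seeing the data, the older quasi-likelihood method. The script was tested on simulated data. The 8 factors and the lists were chosen with earlier results of these data known. Beside the 8 factors, their 5 neighbours and 4 drug checks, each other list named at most 3 genes with the largest and 3 with the smallest fold change among called genes averaging at least 1 CPM in the higher group, and the 3 most correlated genes were named for each factor. VIM, EPCAM, AL121722.1 and ENSG00000266283 were named outside this rule, after their values were seen. A gene of the duct and progenitor list that this rule names is not reported here. Promoters are from RefSeq (GRCh38.p14). No pair of libraries within a group agreed within sampling noise.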

Additional observations from a re-analysis of the deposited data

Results flagged for a closer look

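For 6 of the 8 factors the response to trametinib differed between the lines by a test of the difference itself (edgeR quasi-likelihood test, log2 scale, KP4 minus MiaPaca2). Over all tested genes, 35.7% were called by that test. The difference was -0.67 for SOX9 and -0.56 for FOXA2, which fell further in KP4. It was -0.64 for GATA6, which rose less in KP4. It was 1.06 for ONECUT2 and -0.81 for NR5A2, which passed the test in MiaPaca2 alone. It was 2.76 for ELF3, where KP4 started from 3 summed counts. The values for FOXA2 and ELF3 lost their call in some alternative settings, as given in the report, and those for SOX9, GATA6, ONECUT2 and NR5A2 kept theirs in all 21.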

How the results depend on the processing

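The number of factors called was 5 in KP4, 7 in MiaPaca2, 6 for the difference between the responses and 7 between the untreated lines. Leaving out each library in turn gave 4 to 6, 6 to 7, 4 to 6 and 7 factors. The shares of all tested genes called were 48.1%, 64.0%, 35.7% and 63.2%, in the same order. With the replicate number as a block, 5, 7, 6 and 7 factors were again called. In the labels the samples share only a number. None of 18 same-numbered pairs had a correlation of deviations over 0.1 (range -0.02 to 0.03), and the same number gave the best match in 8. Such values show no strong shift shared by number, but cannot tell if libraries were handled in pairs. SOX9, GATA6 and ELF3 kept their calls in both lines, and FOXA2 did too, in all 16 alternatives for each line. All sign changes were in values that passed no test. The cause was not tested. The values without each library ran from -0.12 to 0.40 for the PDX1 difference between the responses, from -0.24 to 0.22 for PDX1 between the untreated lines, from -0.11 to 0.18 for ELF3-AS1 and from -0.19 to 0.48 for GATA6-AS1 in KP4, from -0.75 to 0.14 for SOX9-AS1 in MiaPaca2, and from -0.53 to 0.60 for ETV4 and -0.28 to 0.21 for ETV5 in the difference. With limma-voom the ETV4 difference became 0.11. Calls in short lists moved as well: those among paralogs ranged from 0 to 2 in KP4 and from 3 to 5 in MiaPaca2. Depth limits FOXA1, PDX1, the antisense RNAs and ELF3 in KP4.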
